A study of Mus musculus with 4 samples.

Results

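Cohesin and condensin are ring-shaped protein complexes that shape chromosomes, and the 10 genes described here encode subunits of both, together with *Ctcf*. They were taken by name, with earlier results of these data known. They are the 4 subunits of mitotic cohesin *Smc1a*, *Smc3*, *Rad21* and *Stag2*, the 5 subunits of condensin I *Smc2*, *Smc4*, *Ncapd2*, *Ncapg* and *Ncaph*, and *Ctcf*. All 10 were among the 17104 genes of the expression table. Their expression was examined in YFP+, c-kit+ leukemic stem cells (LSCs) sorted from bone marrow, with 2 libraries of CD37 fl/fl and 2 of CD37 -/-. LSCs are the cells that maintain acute myeloid leukemia (AML) upon transplantation.

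Cohesin holds sister chromatids together from replication until anaphase, and in interphase it extrudes loops of chromatin that are halted where CTCF, a zinc finger protein, is bound. Condensin I compacts chromosomes in mitosis, and condensin II, which shares SMC2 and SMC4 with it, lies inside the nucleus and starts the compaction in prophase. Cohesin genes, among them *STAG2*, *RAD21*, *SMC1A* and *SMC3*, are recurrently mutated in human myeloid leukemia, whereas condensin subunits are mainly known as genes of dividing cells.

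Both groups were MLL-AF9 AML on a C57 background in male mice, obtained 6 weeks after transplantation, in the secondary transplantation. Leukemia had been initiated with lineage-negative bone marrow cells of CD37 fl/fl, Cre+ mice, which carry loxP sites in *Cd37* and a tamoxifen-inducible Cre at the Rosa26 locus, active in all tissues, and the cells had been infected with a retrovirus for MLL-AF9 and YFP. By the study's methods, *Cd37* was deleted in such leukemia by tamoxifen given to recipient mice, with corn oil for CD37 fl/fl. For the cells of these libraries, from a later transplantation, when and in which mice tamoxifen was given is not stated, and a lasting effect of it and the loss of *Cd37* cannot be told apart. The C57 mice were young adults when purchased. Their age at the sort and the number of mice behind a library were not given in the sources used here, so that the p-values measure the spread between these libraries, which may be technical. Expression was deposited by the authors as FPKM, the number of fragments divided by the kilobases of the gene and by sequencing depth. The kilobases were those of the whole genomic span of a gene, introns included, and genes with long introns therefore had low FPKM for their number of reads.

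*Cd37* itself was lower in the CD37 -/- libraries, with 23.2 and 22.9 FPKM, than in the CD37 fl/fl libraries, with 56.6 and 46.8 FPKM, and 44.6% of the mean was left. By the study's methods the loxP sites flank only a part of the exons, whereas FPKM cover the whole gene. This share therefore does not measure how much *Cd37* remained undeleted. Sequencing depth was 15327354 and 17327712 reads for replicates 1 and 2 of CD37 fl/fl, and 17740466 and 22627515 reads for those of CD37 -/-. *Hoxa9* (4754 to 7600 reads) and *Meis1* (1092 to 2681 reads), targets of MLL fusions, were read in all libraries. *Kit*, whose product was the sorting marker, had between 213 and 804 reads. Scaled by depth and per kilobase of exon, its level was 1.56 and 2.98 in CD37 fl/fl against 3.00 and 3.99 in CD37 -/- libraries. On that scale it lay below each of the 10 genes in each library. Of 7 tested LSC and leukemia genes, *Ptprc* and *Hoxa10* were higher and *Mpo*, a granule enzyme of early myeloid cells, was lower at an unadjusted p under 0.05. Over all genes tested, 16.5% were higher and 5.61% were lower at that threshold (limma). The counts among these 7 genes are not read as a result about the list. All 7 mature neutrophil markers were detected, and their summed level was 18330 and 3583 FPKM in CD37 fl/fl against 18370 and 10250 FPKM in CD37 -/- libraries. This sum rests mostly on *S100a8* and *S100a9*. All 7 had a log2 fold change above 0, beside 64.5% of all genes tested, with a median of 1.55, larger than that of the 10 genes below. *Ngp* (2.08), *Ltf* (1.55) and *Retnlg* (2.05) did not overlap between the groups, beside 42.2% of all genes tested that were separated towards CD37 -/-. *Ly6g*, *S100a8*, *S100a9* and *Camp* overlapped, and 0 of the 7 had an unadjusted p under 0.05. In CD37 fl/fl all 7 were low in replicate 2, with a ratio to replicate 1 between 0.0914 (*Retnlg*) and 0.249 (*Ltf*). The 7 measured erythroid markers, of 9 listed, summed to 60.9 and 5.17 FPKM in CD37 fl/fl against 576.4 and 143.3 FPKM in CD37 -/- libraries. All 5 tested erythroid markers were higher at an unadjusted p under 0.05, against 16.5% of all genes tested. The 5 measured B cell markers, of 6 listed, summed to 12.8 and 15.4 FPKM against 8.46 and 6.63 FPKM, and the 5 measured T and NK cell markers, of 8 listed, to between 0.187 and 0.785 FPKM. Of these lists, the defining genes *Pax5* and *Cd3g* had at most 17 and 9 reads in any library. The 7 macrophage and dendritic cell markers summed to between 50.2 and 148.4 FPKM, with overlapping groups. The part of these other cells in the results below was not tested. In bulk samples such as these, fewer cells of a type and less RNA per cell cannot be told apart.

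All 10 genes were higher in CD37 -/- LSCs. In each case both CD37 -/- libraries lay above both CD37 fl/fl libraries, and the ratio of the group means ranged from 1.21 for *Ncapd2* to 2.73 for *Rad21*. Such a separation towards CD37 -/- was also seen in 42.2% of the 11774 genes with a mean of at least 0.1 FPKM, so that it was common in these libraries. Genes were tested with limma on log2(FPKM + 0.1), on which the change of genes with low values is understated. Of the 10 genes, 5 (*Rad21*, *Stag2*, *Ctcf*, *Smc2* and *Smc4*) were higher at an unadjusted p under 0.05, against 16.5% of all genes tested, and 0 were lower, against 5.61%. This count of 5 depended on which libraries were included. The median log2 fold change of the 10 genes was 0.52 without CD37 fl/fl replicate 1 and 0.92 without CD37 fl/fl replicate 2. It was 0.74 without CD37 -/- replicate 1 and 0.61 without CD37 -/- replicate 2. Over all genes tested, the median in these fits was 0.18, 0.26, 0.26 and 0.18, in the same order. Each of these fits leaves 1 library in a group. After Benjamini-Hochberg adjustment over all genes tested, 0 of the 10 and 0.0% of all genes passed a threshold of 0.05. The smallest adjusted p of any gene was 0.107, and limma-voom on recovered reads likewise called 0 genes. The adjusted p of the 10 genes ranged from 0.128 to 0.455 (limma). Their median log2 fold change was 0.67, or 1.60-fold, beside 0.23, or 1.17-fold, over all genes tested, of which 64.5% were above 0.

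**Figure D1:**
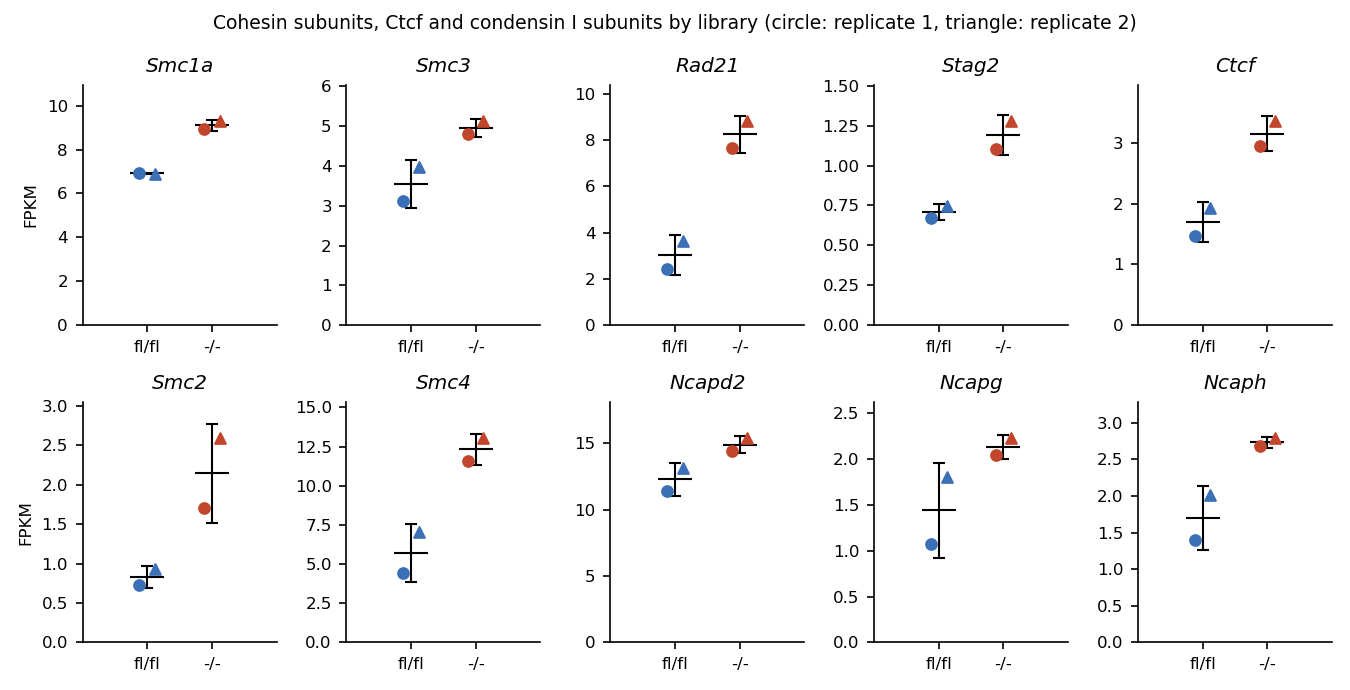
FPKM (linear axis from 0) of the 10 genes in the CD37 fl/fl (blue) and CD37 -/- (red) libraries. Circles and triangles are replicates 1 and 2, and black bars give the mean ± SD of 2 libraries. In every panel both CD37 -/- libraries lie above both CD37 fl/fl libraries, and as a percentage of the higher CD37 fl/fl library the gap is widest in *Rad21* (111.1%) and narrowest in *Ncapd2* (9.86%).

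Within cohesin, *Rad21* had the largest fold change. It encodes the kleisin subunit that closes the ring and that separase cleaves at anaphase, and lies on chromosome 15 (chr15:51962240-51991747, minus strand, GRCm38). *Rad21* had 2.41 and 3.63 FPKM in CD37 fl/fl libraries and 7.66 and 8.81 FPKM in CD37 -/- libraries (3.02 ± 0.859 against 8.24 ± 0.811, SD, n = 2). The lower CD37 -/- library was 111.1% above the higher CD37 fl/fl library, the largest gap of the 10 genes. Its log2 fold change was 1.44 (95% interval 0.73 to 2.15), with an unadjusted p of 0.00321 and an adjusted p of 0.128 by limma.

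*Stag2*, on chromosome X (chrX:42149317-42277185, plus strand), encodes the HEAT-repeat subunit that binds RAD21 and is exchanged for STAG1 in a part of the complexes. It was measured at 0.671 and 0.745 FPKM in CD37 fl/fl against 1.10 and 1.28 FPKM in CD37 -/- libraries. These are the lowest FPKM of the cohesin subunits. The gene spans 127869 bases for 8273 bases of exon, and the values rest on 1316 to 3697 reads. The groups did not overlap, and the log2 fold change was 0.67 (95% interval 0.05 to 1.30), with an unadjusted p of 0.0392 and an adjusted p of 0.207 by limma.

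*Smc1a* and *Smc3* encode the ATPase arms of the ring, which bind each other at the hinge. *Smc1a* (chrX:152016428-152062694, plus strand) had 6.93 and 6.91 FPKM in CD37 fl/fl against 8.94 and 9.29 FPKM in CD37 -/- libraries. Its replicates were close to each other, with a ratio of replicate 2 to replicate 1 of 0.996 in CD37 fl/fl and of 1.04 in CD37 -/-. *Smc3* (chr19:53600398-53645833, plus strand) had 3.13 and 3.97 FPKM in CD37 fl/fl against 4.80 and 5.13 FPKM in CD37 -/- libraries. Neither passed the unadjusted threshold. The log2 fold change was 0.39 (95% interval -0.13 to 0.91, adjusted p = 0.306, limma) for *Smc1a* and 0.48 (95% interval -0.11 to 1.08, adjusted p = 0.283, limma) for *Smc3*.

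*Ctcf* (chr8:105636568-105682922, plus strand) was measured at 1.47 and 1.93 FPKM in CD37 fl/fl against 2.94 and 3.35 FPKM in CD37 -/- libraries (1.70 ± 0.324 against 3.15 ± 0.292, SD, n = 2). Both CD37 -/- libraries were higher, the lower of them by 52.8% over the higher CD37 fl/fl library. The log2 fold change was 0.86 (95% interval 0.22 to 1.50), with an unadjusted p of 0.0174 and an adjusted p of 0.172 by limma. In the annotation, 370 bases of *Ctcf* exons lie opposite to exons of *Agrp* and *Gm5914*. The libraries kept the strand, but whether the counting used it was not given in the sources used here, and without it the reads of such stretches cannot be told apart.

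Of condensin I, both SMC subunits were higher at an unadjusted p under 0.05. *Smc2* (chr4:52439243-52488260, plus strand) had 0.732 and 0.934 FPKM in CD37 fl/fl against 1.70 and 2.59 FPKM in CD37 -/- libraries. Its CD37 -/- replicates lay further apart than those of any other of the 10 genes, by a ratio of 1.52. The log2 fold change was 1.25 (95% interval 0.47 to 2.02, unadjusted p = 0.00874, adjusted p = 0.151, limma). *Smc4* (chr3:69004738-69034623, plus strand), its partner in the heterodimer, had 4.42 and 7.05 FPKM in CD37 fl/fl against 11.6 and 13.0 FPKM in CD37 -/- libraries. Here the CD37 fl/fl replicates lay apart, by a ratio of 1.60, and the gap to the CD37 -/- libraries was 64.8%. The log2 fold change was 1.13 (95% interval 0.38 to 1.87, unadjusted p = 0.0115, adjusted p = 0.160, limma).

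The 3 subunits found in condensin I but not in condensin II had smaller differences. *Ncaph* (chr2:127103809-127133954, minus strand), the kleisin of condensin I, had 1.39 and 2.01 FPKM in CD37 fl/fl against 2.68 and 2.79 FPKM in CD37 -/- libraries. With a log2 fold change of 0.67 (95% interval -0.004 to 1.35, unadjusted p = 0.0510, adjusted p = 0.227, limma), it narrowly missed the unadjusted threshold. *Ncapg* (chr5:45669919-45700546, plus strand) encodes a HEAT-repeat subunit and had 1.08 and 1.81 FPKM in CD37 fl/fl against 2.04 and 2.22 FPKM in CD37 -/- libraries. The spread between the CD37 fl/fl replicates, a ratio of 1.68, exceeded the gap of 13.0% between the groups, and the log2 fold change was 0.57 (95% interval -0.22 to 1.37, adjusted p = 0.319, limma). The value for *Ncapg* was 0.23 without CD37 fl/fl replicate 1 and 0.92 without CD37 fl/fl replicate 2. That for *Ncaph* was 0.43 without CD37 fl/fl replicate 1 and 0.92 without CD37 fl/fl replicate 2. Of the exon bases of *Ncapg*, 944 lie opposite to exons of *Lcorl*, with the same limit as for *Ctcf*. *Ncapd2* (chr6:125168007-125191701, minus strand), the other HEAT-repeat subunit, had the highest FPKM of the 10 genes, with 11.4 and 13.2 in CD37 fl/fl against 14.5 and 15.4 in CD37 -/- libraries. Its groups were only 9.86% apart, and the log2 fold change was 0.28 (95% interval -0.27 to 0.83, adjusted p = 0.455, limma). *Ncapd2* also shared 2.92% of its stretches of 50 bases with the small RNA gene *Scarna10* and with *Gm28967*, which overlap it on the same strand.

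**Figure D2:**
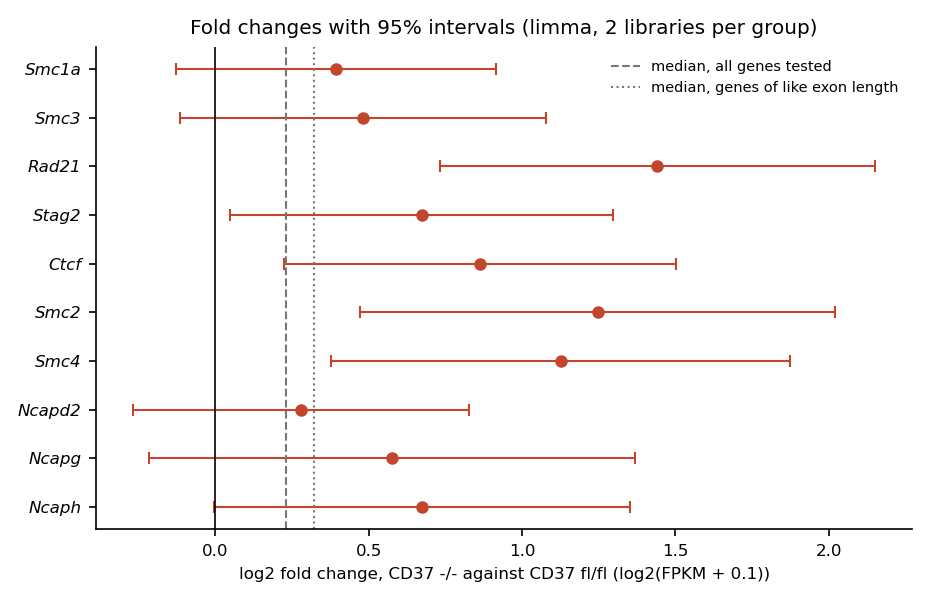
Log2 fold change on log2(FPKM + 0.1), CD37 -/- against CD37 fl/fl, for each of the 10 genes (points) with its 95% interval from limma (bars, 2 libraries per group). The dashed line is the median of all genes tested (0.23) and the dotted line that of genes of like exon length (0.32). The intervals of 5 genes lie above 0, and those of 3 genes (*Rad21*, *Smc2* and *Smc4*) also lie above the dashed line.

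The level of these genes relative to each other was compared on recovered reads per kilobase of exon, scaled by depth like FPKM, since span-based FPKM are not comparable between genes with different introns. In CD37 fl/fl LSCs, *Smc1a* was the highest (55.5 ± 0.156, SD, n = 2), followed by *Ncapd2* (46.5 ± 4.63), *Smc4* (32.9 ± 10.7), *Smc3* (29.1 ± 4.86), *Rad21* (21.1 ± 6.00), *Ctcf* (16.2 ± 3.09), *Ncaph* (11.9 ± 3.04), *Stag2* (10.9 ± 0.806), *Smc2* (7.45 ± 1.28) and *Ncapg* (6.25 ± 2.24). The values of neighbours in this order overlapped between *Smc4* and *Smc3*, *Rad21* and *Ctcf*, *Ctcf* and *Ncaph*, *Ncaph* and *Stag2*, and *Smc2* and *Ncapg*. In CD37 -/- LSCs, *Smc1a* (73.1 ± 1.99) overlapped with *Smc4* (70.7 ± 5.73), and *Rad21* (57.4 ± 5.66) overlapped with *Ncapd2* (56.4 ± 2.45). *Smc4* thus moved from the third to the second place and *Rad21* from the fifth to the third place. *Smc3* (40.7 ± 1.87), *Ctcf* (30.0 ± 2.78), *Smc2* (19.2 ± 5.62), *Ncaph* (19.1 ± 0.516), *Stag2* (18.4 ± 1.92) and *Ncapg* (9.24 ± 0.559) followed, of which *Smc2*, *Ncaph* and *Stag2* overlapped from one to the next.

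Ratios within a library do not depend on how libraries are scaled against each other, and were used to ask whether subunits of a complex kept their proportion. With 2 against 2 libraries the exact permutation test (two-sided) cannot give a p below 0.333, so that the ratios are a description. The ratio between the arms of cohesin overlapped between the groups: *Smc1a* to *Smc3* was 2.17 and 1.70 in CD37 fl/fl against 1.82 and 1.77 in CD37 -/- libraries. Between the arms of condensin the groups overlapped as well, with *Smc2* to *Smc4* at 0.259 and 0.207 in CD37 fl/fl against 0.229 and 0.310 in CD37 -/- libraries.

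*Rad21*, in contrast, was higher relative to the arms of its own ring. *Rad21* to *Smc1a* was 0.303 and 0.457 in CD37 fl/fl against 0.745 and 0.825 in CD37 -/- libraries, and *Rad21* to *Smc3* was 0.656 and 0.778 against 1.36 and 1.46. Against *Wapl*, which releases cohesin from chromatin, *Rad21* stood at 1.05 and 1.36 in CD37 fl/fl against 2.46 and 2.62 in CD37 -/- libraries. For the loader to releaser ratio, *Nipbl* to *Wapl*, the groups overlapped, with 0.563 and 0.563 in CD37 fl/fl against 0.537 and 0.616 in CD37 -/- libraries. *Stag2* to *Stag1* was 1.89 and 2.14 in CD37 fl/fl against 2.61 and 2.82 in CD37 -/- libraries, without overlap. For each ratio without overlap in these libraries, the exact permutation p was 0.333, the smallest it can be.

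Between the condensins, the proportion differed by subunit. *Ncapd2* of condensin I to *Ncapd3*, its counterpart in condensin II, was 21.9 and 14.1 in CD37 fl/fl against 5.95 and 4.00 in CD37 -/- libraries. This was the widest shift of all ratios computed, by -1.85 on the log2 scale. *Ncapg* to *Ncapg2* shifted by -0.26, with 1.56 and 1.91 in CD37 fl/fl against 1.54 and 1.34 in CD37 -/- libraries. *Ncaph* to *Ncaph2* shifted the other way, by 0.82, with 0.151 and 0.269 in CD37 fl/fl against 0.329 and 0.382 in CD37 -/- libraries. Inside condensin I, *Smc4* to *Ncapd2* was 0.586 and 0.812 in CD37 fl/fl against 1.22 and 1.29 in CD37 -/- libraries, and *Ncapg* to *Ncapd2* was 0.108 and 0.157 against 0.162 and 0.166, a shift of 0.33. Several of these shifts rest on single CD37 fl/fl libraries. Without replicate 1 the shift was 0.40 for *Ncaph* to *Ncaph2*, -0.41 for *Ncapg* to *Ncapg2* and 0.058 for *Ncapg* to *Ncapd2*, and without replicate 2 it was 1.24, -0.12 and 0.60. Leaving out CD37 -/- replicate 2 gave -0.17 for *Ncapg* to *Ncapg2*. The exact permutation p was 0.333 for each of the ratios in this paragraph. The ratios of *Rad21* to *Smc1a* and *Smc3*, and of *Smc4* and *Ncapg* to *Ncapd2*, were chosen after the values had been seen.

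**Figure D3:**
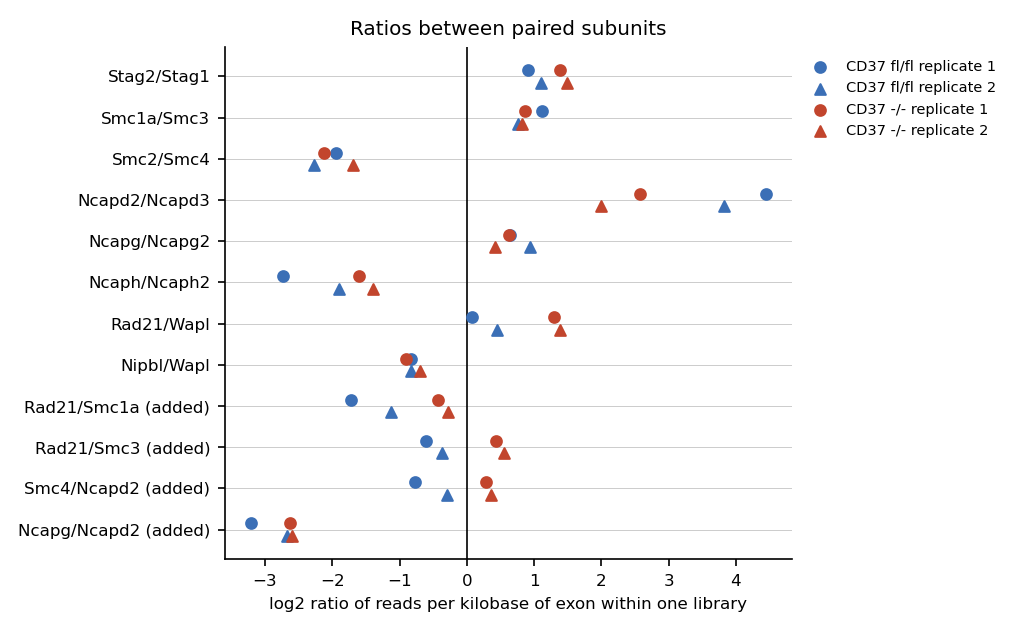
Log2 ratio of reads per kilobase of exon between paired genes within a library, for CD37 fl/fl (blue) and CD37 -/- (red), with circles and triangles for replicates 1 and 2. The black line marks equal levels, and pairs marked as added were chosen after the values had been seen. *Smc1a* to *Smc3*, *Smc2* to *Smc4* and *Nipbl* to *Wapl* overlap between the groups, and *Ncapd2* to *Ncapd3* is apart by 1.85.

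Other genes of the same pathways were counted as lists, to be read beside the 64.5% of all tested genes that were above 0 and the 16.5% that were higher at an unadjusted p under 0.05. Of 14 tested regulators of cohesin, 13 were above 0 on the log2 fold change and 1 below, with a median of 0.36, and 2 were higher at an unadjusted p under 0.05, a share near that of all genes. These were *Esco2*, the acetyltransferase that establishes cohesion in S phase, with 1.06 and 1.07 FPKM in CD37 fl/fl against 2.54 and 2.66 FPKM in CD37 -/- libraries (log2 fold change 1.21, adjusted p = 0.122, limma), and *Aurkb*, the mitotic kinase Aurora B, with 9.42 and 17.7 against 25.4 and 25.3 FPKM (0.97, adjusted p = 0.203). The loader *Nipbl* (0.36) and the release factor *Wapl* (0.36) did not pass the unadjusted threshold, nor did *Stag1*, with 0.179 and 0.176 FPKM in CD37 fl/fl against 0.213 and 0.228 FPKM in CD37 -/- libraries. *Hdac8* was too low to be tested.

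Of the 3 subunits of condensin II, 2 were higher at an unadjusted p under 0.05. *Ncapd3* had 0.239 and 0.427 FPKM in CD37 fl/fl against 1.11 and 1.76 FPKM in CD37 -/- libraries (log2 fold change 1.83, adjusted p = 0.132, limma), a fold change above those of the 10 genes, though the difference was not tested. *Ncapg2* had 0.510 and 0.700 against 0.981 and 1.23 FPKM (0.78, adjusted p = 0.206). *Ncaph2*, with 15.9 and 12.8 FPKM in CD37 fl/fl against 14.0 and 12.5 FPKM in CD37 -/- libraries, overlapped between the groups.

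Genes of the related SMC5/6 complex, which acts in DNA repair, lay on both sides of 0: of 4 tested genes, 2 were above and 2 below, with a median of 0.01. *Nsmce1*, its ring finger subunit, was the 1 gene lower at an unadjusted p under 0.05, with 6.75 and 5.30 FPKM in CD37 fl/fl against 3.80 and 3.22 FPKM in CD37 -/- libraries (log2 fold change -0.76, adjusted p = 0.184, limma). Of 8 other chromosome structure genes, 6 were above 0 and 2 below, with a median of 0.60. Of these, *Top2a*, the topoisomerase of mitotic chromosomes (0.78), and *Kif4*, a chromosome-bound kinesin (0.72), were higher at an unadjusted p under 0.05. *Mki67*, which coats mitotic chromosomes, had 26.9 and 24.2 FPKM in CD37 fl/fl against 27.4 and 27.0 FPKM in CD37 -/- libraries (0.09). Of 4 tested partners of CTCF or other architectural factors, 3 were above 0 and 1 below, with a median of 0.41. Among them, *Yy1* (0.68) and *Vezf1* (0.96) were higher at an unadjusted p under 0.05. The meiotic counterparts *Smc1b*, *Rec8* and *Rad21l* had at most 5, 8 and 0 reads in any library, and *Stag3* had 33 to 192 reads.

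Because condensin and mitotic cohesin regulators are made in dividing cells, cell cycle genes were read beside them. Of 16 tested genes of G2 and mitosis, 15 were above 0, with a median log2 fold change of 0.60, and 5 (*Ccna2*, *Cdk1*, *Plk1*, *Bub1b* and *Kif11*) were higher at an unadjusted p under 0.05. Among 12 tested S phase genes, 9 were above 0, with a median of 0.43, and 4 (*Mcm2*, *Pcna*, *Rrm2* and *Cdc6*) were higher at that threshold. Over all genes tested, 64.5% were above 0 and 16.5% were higher at that threshold. The summed level of the G2 and mitosis genes was 132.8 and 154.3 FPKM in CD37 fl/fl against 188.3 and 173.8 FPKM in CD37 -/- libraries. For comparison, the median was 0.67 for the 5 condensin I genes and 0.58 for the 4 cohesin genes. The part of the cell cycle in these differences was not tested.

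Gene length moved with the fold changes as well. The exon length of the 10 genes lies between 4232 bases (*Rad21*) and 8273 bases (*Stag2*), and over all genes tested the median log2 fold change was -0.06 for genes of 1001 to 2000 bases of exon, 0.30 for 4001 to 6000 bases and 0.41 for 8001 to 12000 bases. Among the 3560 tested genes within the length range of the 10 genes, the median was 0.32. In that range 53.3% were separated towards CD37 -/- and 19.5% were higher at an unadjusted p under 0.05, beside 10 and 5 of the 10 genes. *Ncapd2* lay below the median of its length bin (0.33), *Smc1a* (0.39) and *Smc3* (0.48) lay less than 0.2 above that of theirs (0.30), and *Rad21*, *Smc2* and *Smc4* lay furthest above. The part of length in the difference was not tested.

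**Figure D4:**
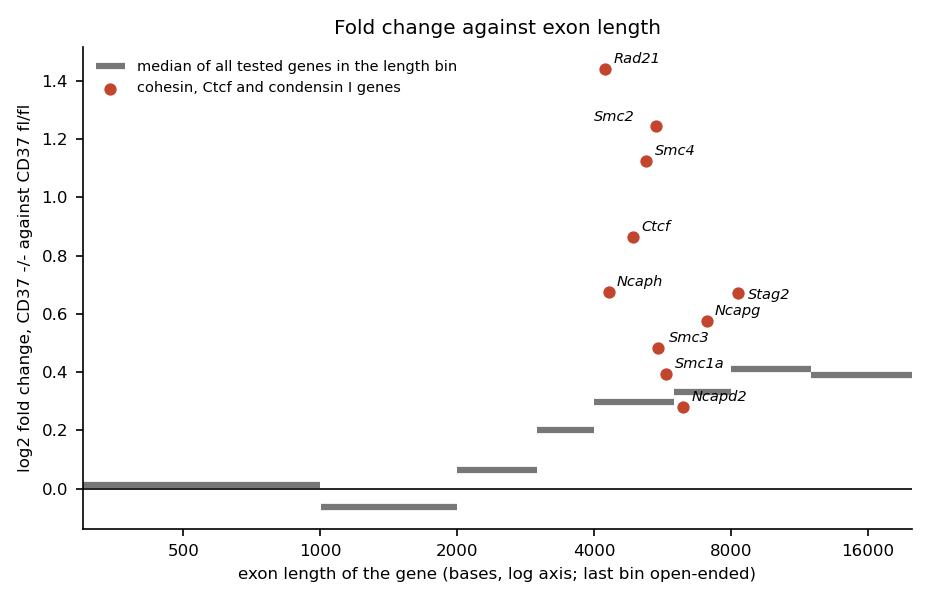
Log2 fold change, CD37 -/- against CD37 fl/fl, of the 10 genes (red points) against the summed length of their exons (log axis). Grey bars give the median of all tested genes in each length bin, from -0.06 at 1001 to 2000 bases to 0.41 at 8001 to 12000 bases. *Ncapd2* lies below the bar of its bin and the other 9 genes lie above theirs.

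The order of the single libraries was the same in 9 of the 10 genes, namely CD37 fl/fl replicate 1, CD37 fl/fl replicate 2, CD37 -/- replicate 1 and CD37 -/- replicate 2 from low to high, with *Smc1a* as the exception. Sequencing depth had this order too, and 21.2% of all genes tested followed it. The sum of FPKM over all genes fell in the opposite order, from 260590 and 257393 to 217309 and 181944, while the median FPKM was 0.367, 0.386, 0.503 and 0.552. The number of genes that passed the unadjusted threshold moved with the scaling of the libraries. With each library rescaled to the same sum (TPM), all 10 genes were higher at an unadjusted p under 0.05, against 28.8% of all genes. Under quantile normalization 4 were (9.13% of all genes), under upper quartile scaling 4 (9.53%) and with the medians of the libraries set equal 3 (7.62%). *Rad21*, *Smc2* and *Smc4* were among them under each of these scalings, and *Rad21* was higher at an unadjusted p under 0.05 in all 18 fits, with a log2 fold change between 1.11 and 1.81. *Ncapd2* went from 0.66 under TPM rescaling to -0.05 with equal medians. Of all genes at an unadjusted p under 0.05, 74.7% were higher in CD37 -/- with FPKM as deposited, 93.3% under TPM rescaling, 47.5% under quantile normalization, 43.9% under upper quartile scaling and 34.5% with equal medians.

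**Figure D5:**
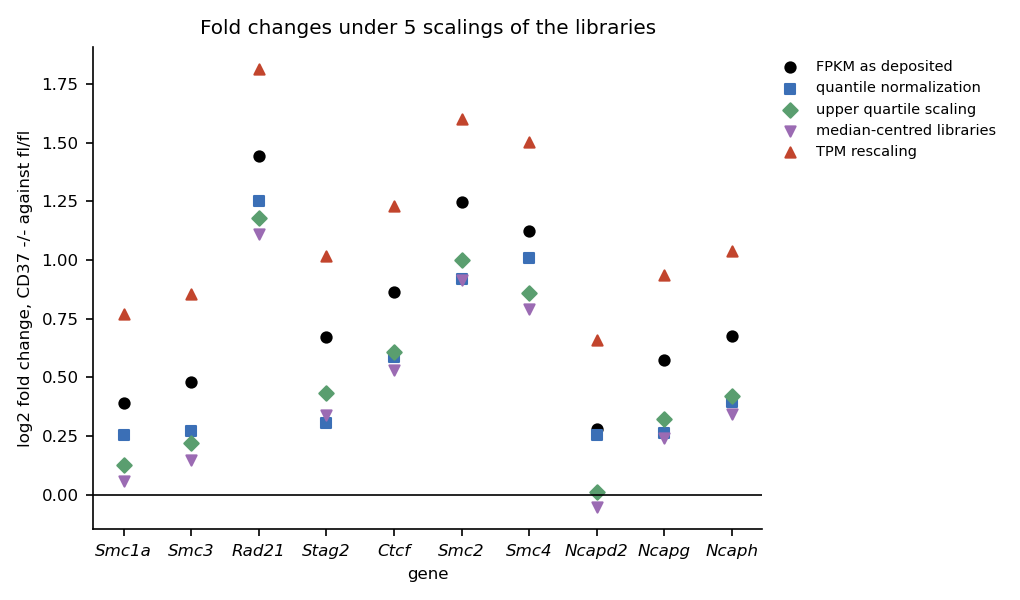
Log2 fold change, CD37 -/- against CD37 fl/fl, of each of the 10 genes with FPKM as deposited (black) and under 4 other scalings of the libraries (colours as in the legend). The order of the genes is similar in each, TPM rescaling lies highest throughout, and *Ncapd2* reaches -0.05 when the medians of the libraries are set equal.

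The bases before the start of transcription were then read for motifs known from genes of dividing cells. RefSeq promoters (GRCm38.p6) matched 7 of the 10 genes; *Rad21*, *Stag2* and *Smc4* were not matched. In the 150 bases before the start, both strands were searched for CCAAT, for the CHR (TTTGAA or TTTAAA) and for an E2F motif (TTTCCCGC, TTTGGCGC, TTTCGCGC or TTTGCCGC). Overlapping matches were allowed. The 4 promoters with any match are shown 5′ to 3′ on the strand of the gene, with matches in capitals, without bases that GENCODE M21 counts as exon, and with the position in GRCm38.p6.
Smc1a, chrX:152016278-152016427, plus strand: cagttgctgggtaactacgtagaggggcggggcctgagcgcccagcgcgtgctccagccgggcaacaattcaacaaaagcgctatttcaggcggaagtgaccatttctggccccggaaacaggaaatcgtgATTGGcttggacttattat
Smc2, chr4:52439071-52439220, plus strand: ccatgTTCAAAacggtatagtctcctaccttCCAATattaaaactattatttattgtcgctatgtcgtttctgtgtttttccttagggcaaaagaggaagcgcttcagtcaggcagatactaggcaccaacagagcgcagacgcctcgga
Ncapd2, chr6:125191702-125191736, minus strand: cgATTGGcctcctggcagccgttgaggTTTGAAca
Ncapg, chr5:45669775-45669918, plus strand: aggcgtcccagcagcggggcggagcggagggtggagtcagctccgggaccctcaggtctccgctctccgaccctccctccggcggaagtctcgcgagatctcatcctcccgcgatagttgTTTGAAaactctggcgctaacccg

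CCAAT was found in *Smc1a*, *Smc2* and *Ncapd2* (3 of 7, beside 24.5% of all 32851 promoters of that length), where ATTGG in capitals is CCAAT on the opposite strand. The CHR was found in *Smc2*, *Ncapd2* and *Ncapg* (3 of 7, beside 14.7%), and in *Smc2* it lies on the opposite strand, as TTCAAA. In *Ncapg* the CHR lies 30 to 25 bases before the start. The E2F motif was found in *Ncapd2* (1 of 7, beside 1.2%), at 8 to 1 bases before the RefSeq start and inside the part not printed, as was a further CCAAT at 48 to 44 bases. The windows of *Smc3*, *Ctcf* and *Ncaph* held none of these letters. The matches are descriptions of the sequence. The genes with a CHR had log2 fold changes of 1.25 (*Smc2*), 0.28 (*Ncapd2*) and 0.57 (*Ncapg*). *Smc1a*, with CCAAT but no CHR, had 0.39, and those without a match had 0.48 (*Smc3*), 0.86 (*Ctcf*) and 0.67 (*Ncaph*). With so few genes, and without *Rad21*, *Stag2* and *Smc4*, these values cannot show whether a motif goes with the change.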

How the data were processed

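Sorted LSCs gave 4 strand-specific poly(A) RNA libraries, 2 per genotype. For each library the authors deposited a column of FPKM per gene, not logged and not pooled. The submitters' processing notes name fastp 0.20.1, STAR 2.7.7a, featureCounts 2.0.0, edgeR and mm39, without their roles. Names and coordinates come from GENCODE M21 (GRCm38), which held 17045 of 17104 identifiers (99.7%). This annotation was used because, with its gene spans, between 98.8% and 99.0% of values per library came out as whole reads within 0.05 reads, which chance meets for 10.0% of values. Recovered reads gave the depth, the read counts, the levels per kilobase of exon, the ratios and some of the alternatives. The main fit used FPKM as deposited.

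FPKM were tested as log2(FPKM + 0.1) for the 11774 genes with a mean of at least 0.1, in limma 3.58.1 under R 4.3.3 (lmFit, then eBayes using a trend), Benjamini-Hochberg adjustment and a threshold of 0.05. This low pseudocount and minimum were used because span-based FPKM are low for genes with long introns. The labels do not say whether replicate numbers pair the libraries, and the main fit had no block. The deviations of same-numbered libraries had a correlation of -0.06 across genes, which cannot decide this with so few libraries. Replicates differed by more than sampling noise (chi-square per degree of freedom 101.8 and 66.5). The genes named are the 10 genes, *Cd37*, and genes of the pathway lists that had an unadjusted p under 0.05 or stood in a ratio. Lists of cell types and of the cell cycle are given as counts and sums, with some of their genes named. *Mki67*, *Hdac8* and genes near 0 reads were named beyond this rule. The 10 genes and the lists were chosen with earlier results of these data known. *Ctcfl*, *Nsmce3*, *Nsmce4a*, *Zfp143*, *Adnp*, *Itgam*, *Alas2*, *Ahsp*, *Ms4a1*, *Cd3e*, *Trbc1* and *Ncr1* were not analysed here. 1 marker gene is not reported here. Promoters are from RefSeq (GRCm38.p6). Tables were made with pandas 2.3.3 and numpy 2.4.6 in Python 3.11.15, exact permutation tests with scipy 1.17.1 and figures with matplotlib 3.10.9. The code was tested on simulated data drawn from these 4 libraries. Alternatives were another pseudocount, other minimums, 4 other scalings, exon length, limma-voom, other moderation, the replicate number as a block and each library left out.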

Additional observations from a re-analysis of the deposited data

How the results depend on the processing

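Over 168 alternative values of the 10 genes, 167 kept the direction and 0 passed an adjusted p under 0.05 (limma); the 1 that reversed was *Ncapd2* with the medians of the libraries set equal, at -0.053, an alternative chosen after the data had been seen. At an adjusted p under 0.05 all fits gave 0 genes. The median log2 fold change of the 10 genes, 0.67, became 0.44 with a pseudocount of 1, 0.35 under quantile normalization, 0.43 under upper quartile scaling, 0.34 with equal medians and 1.03 under TPM rescaling, and ranged from 0.52 to 0.92 when 1 library was left out. The number of the 10 genes higher at an unadjusted p under 0.05, 5, became 10 under TPM rescaling, 3 with equal medians, and between 1 and 6 when 1 library was left out: 3 without CD37 fl/fl replicate 1, 2 without CD37 -/- replicate 1 and 1 (*Rad21*) without CD37 -/- replicate 2. In these fits the lone library is assumed to vary like the others. The replicate block left it at 5, with 2475 genes at an unadjusted p under 0.05 in place of 2606, and changed no call of the 10 genes. That number of genes was 1621 with a mean FPKM of at least 1 (1626 with a pseudocount of 1 as well), where *Stag2* was not tested, and between 1167 (without CD37 -/- replicate 2) and 2154 when 1 library was left out. The shift of *Smc1a* to *Smc3* (-0.10) ranged from -0.27 to 0.077 when 1 library was left out (0.077 without CD37 fl/fl replicate 1). That of *Smc2* to *Smc4* (0.20) ranged from -0.017 to 0.42 and that of *Nipbl* to *Wapl* (0.03) from -0.069 to 0.13, both lowest without CD37 -/- replicate 2. Where no construction explains a change, the cause was not tested. The 10 genes had at least 505 reads in every library, and each group had 2 libraries. Both CD37 -/- libraries were sequenced deeper than both CD37 fl/fl libraries, and the part of depth in the differences was not tested.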
